A study of Mus musculus with 4 samples.

Results

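The Schlafen gene family was examined in PMN-MDSCs, the polymorphonuclear myeloid-derived suppressor cells that resemble immature neutrophils and restrain T cells. The members were the 7 Schlafen genes *Slfn1*, *Slfn2*, *Slfn3*, *Slfn4*, *Slfn5*, *Slfn8* and *Slfn9*, taken by name from the 28585 genes listed. All 7 passed the filter on low values described below. Bulk RNA sequencing was performed on PMN-MDSCs from the spleens of C57BL/6J pups on postnatal day 7, with 2 libraries from Dhps cko pups and 2 from Dhps flox pups. *Dhps* encodes deoxyhypusine synthase, which uses spermidine to modify the translation factor eIF5A. Both genotypes carried the floxed *Dhps* alleles, and in Dhps cko pups Cre recombinase was expressed from the *Lysm* (*Lyz2*) locus, so that deletion was directed to myeloid cells. No treatment was given in the labels. PMN-MDSCs of mice were defined in the study as CD11b+ cells with Ly6G and with low or no Ly6C. No source used here states how many pups gave a library. *Xist* and Y-linked genes were both detected in every library, as in a mixture of cells from both sexes, and so from more than 1 pup. The number of pups is not known, and the p-values therefore measure only the spread between these libraries.

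Schlafen genes were first described in mouse thymocytes and are named after the German word for sleeping, since several of them slow the growth of T cells. All members share an N-terminal Schlafen core. In the mouse, *Slfn1* and *Slfn2* encode short forms, *Slfn3* and *Slfn4* intermediate forms, and *Slfn5*, *Slfn8* and *Slfn9* long forms with a helicase-like C-terminal part. Many members are induced by type I interferon, whose receptor activates transcription factors that include STAT2 and IRF9. These act on a promoter sequence called the interferon-stimulated response element (ISRE). *Slfn4* is known as a marker of MDSCs in the inflamed mouse stomach.

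*Dhps* was at 2.38 and 2.59 FPKM in Dhps cko replicates 1 and 2 and 3.57 and 3.11 FPKM in Dhps flox replicates 1 and 2 (log2 fold change -0.41, adjusted p = 0.63 in limma), that is, lower but present in Dhps cko, where FPKM are fragment numbers corrected by the authors for transcript length and for the size of the library. The 12 neutrophil markers summed to between 73136 and 80021 FPKM in a library, with *Ngp* and *S100a9* the highest, as is typical of neutrophils. FPKM summed to between 304281 and 319286 in a library, and the steps between low values gave approximate depths of 29900000 to 32000000 mapped fragments, although whole reads could not be recovered. These depths were picked as the best fit, and the fit was weak. At them, 39.1% to 41.9% of the low values used lay near a whole number of fragments, compared with 30% by chance.

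The Schlafen family was abundant in PMN-MDSCs and its level rested on 3 genes. FPKM allow genes to be compared within a library. The 7 members summed to 527.16 and 562.80 FPKM in Dhps cko replicates 1 and 2 and to 478.69 and 446.85 FPKM in Dhps flox replicates 1 and 2. *Slfn2*, *Slfn4* and *Slfn1* together made up between 96.9% and 97.4% of this sum in each library. By mean level over the 4 libraries, *Slfn2* ranked 136, *Slfn4* 157 and *Slfn1* 352 among all genes listed, whereas *Slfn3* ranked 5004, *Slfn9* 6814, *Slfn8* 8350 and *Slfn5* 9888. The ranges of *Slfn2* (188.43 to 237.53 FPKM) and *Slfn4* (169.62 to 202.93 FPKM) overlapped, but *Slfn2* was the higher of the pair in every library. Those of *Slfn8* (1.43 to 3.37 FPKM) and *Slfn5* (0.84 to 1.9 FPKM) overlapped as well, with *Slfn8* the higher in every library. The other neighbours in this order did not overlap.

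**Figure D1:**
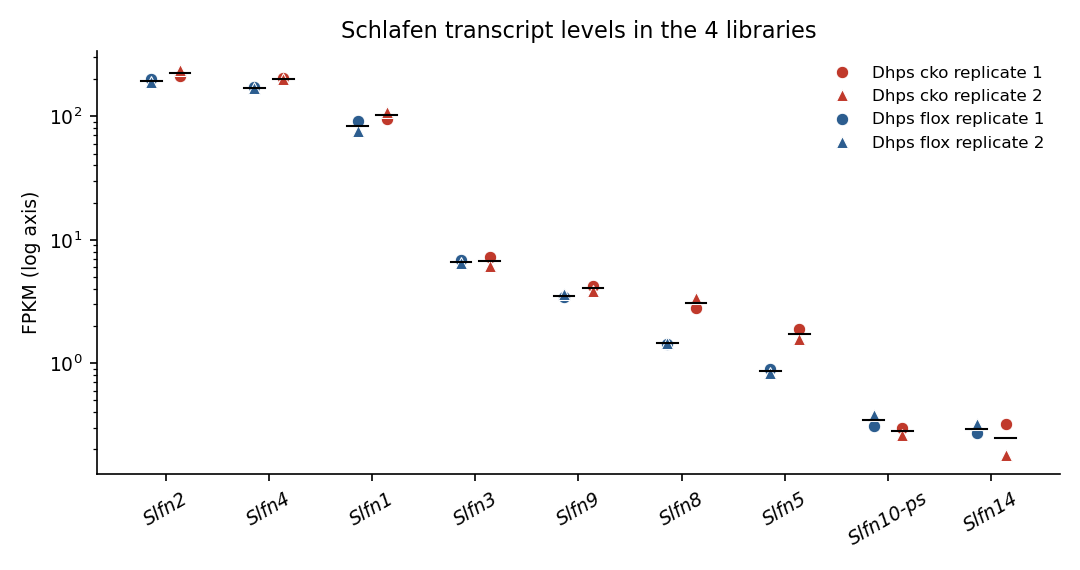
FPKM (log axis) of the 7 Schlafen members, the pseudogene *Slfn10-ps* and *Slfn14* in each of the 4 libraries, with Dhps cko in red, Dhps flox in blue, circles for replicate 1, triangles for replicate 2 and black lines for group means. *Slfn2*, *Slfn4* and *Slfn1* lie above 76 FPKM in every library, and *Slfn8* and *Slfn5* show the widest gap between the genotypes.

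To compare the genotypes, limma was fitted to log2(FPKM + 0.1) of the 17948 genes whose mean reached 0.1 FPKM, and Benjamini-Hochberg adjustment was made over all of these. Fold changes on this scale understate the differences of genes with low FPKM. Of the 7 members, 6 were higher in both Dhps cko libraries than in both Dhps flox libraries, compared with 20.0% of all genes tested. The members were chosen with earlier results of these data known, so that their counts and direction are not independent evidence. The ranges of 1 member, *Slfn3*, overlapped, and 0 members were lower in both. Of all genes, 16.0% were lower in both, so that 36.0% did not overlap in one direction or the other, and 52.2% had a log2 fold change above 0. An unadjusted p under 0.05 with a higher level in Dhps cko was found for 4 members (*Slfn8*, *Slfn5*, *Slfn4* and *Slfn2*), compared with 4.72% of all genes. This number was 2 (*Slfn8* and *Slfn5*) without Dhps cko replicate 1 and also 2 in a fit without the mean-variance trend. No member was lower at this threshold (0 of 7), as 2.28% of all genes were. No member had an adjusted p under 0.05 (0 of 7, lowest adjusted p = 0.40), a threshold that 0.00557% of all genes passed. The median log2 fold change of the members was 0.24, and that of all genes tested was 0.01. Without *Slfn8* and *Slfn5* the members' median was 0.21. In bulk samples, fewer cells of a type and less RNA per cell cannot be told apart. With 2 libraries in each genotype, the smallest two-sided p that an exact permutation test allows is 0.333.

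Markers of other cells and sex-linked genes were unequal between the genotypes as well, none with an adjusted p under 0.05, and their part in the Schlafen values was not tested. The 12 neutrophil markers had a median log2 fold change of 0.08. Of these, 8 overlapped between the genotypes and 4 were higher in both Dhps cko libraries, compared with 20.0% of all genes. The log2 fold change of *Ly6g* was 0.29, close to those of *Slfn1*, *Slfn2* and *Slfn4*. It was the 1 of 12 neutrophil markers that was higher at an unadjusted p under 0.05. The counts of markers that follow are to be read against the 4.72% of all genes that were higher at this threshold. The marker lists, too, were chosen with earlier results of these data known. B cell markers summed to 65.42 and 67.92 FPKM in Dhps cko and 41.79 and 51.13 FPKM in Dhps flox, with 5 of 8 at an unadjusted p under 0.05, T cell markers to 20.29 and 16.33 FPKM against 13.33 and 8.54 FPKM, with 3 of 10, and monocyte-macrophage markers to 405.71 and 400.29 FPKM against 334.63 and 332.91 FPKM, with 6 of 12. The macrophage genes *C1qa*, *C1qb* and *C1qc* had log2 fold changes of 0.53, 0.63 and 0.50, the smallest p-values of their list, in which 8 of 12 genes were higher in both Dhps cko libraries, 3 overlapped and 1, *Mertk* (log2 fold change -0.17), was lower in both. Eosinophil markers summed to 98.69 and 94.03 FPKM in Dhps cko and 80.16 and 81.56 FPKM in Dhps flox, with 3 of 6. Most of this sum was *Ear2*, at 84.92 and 81.68 FPKM in Dhps cko and 70.94 and 72.62 FPKM in Dhps flox. Of the 6, 5 were higher in both Dhps cko libraries, compared with 20.0% of all genes, and *Siglecf* overlapped. Natural killer cell, dendritic cell, erythroid, platelet and primary granule lists had 0 genes at an unadjusted p under 0.05. Only 1 of the 6 natural killer cell markers, *Gzma*, passed the filter on low values, so that its list could show little. Dendritic cell markers summed to 8.05 and 8.04 FPKM in Dhps cko and 5.05 and 6.72 FPKM in Dhps flox, with 4 of 5 tested genes higher in both Dhps cko libraries, compared with 20.0% of all genes, and a median log2 fold change of 0.48, which is that of *Bst2*, a gene also held by the list of interferon-induced effectors below. Natural killer cell markers summed to 0.64 to 1.12 FPKM and platelet markers to 1.66 to 4.37 FPKM, with overlapping genotypes. Erythroid markers summed to 466.23 to 690.14 FPKM and primary granule genes to 46.28 to 81.25 FPKM, with overlapping genotypes for both sums. All 5 primary granule genes had a log2 fold change above 0, compared with 52.2% of all genes, with a median of 0.55, and 1 of them was higher in both Dhps cko libraries, compared with 20.0% of all genes. *Xist* was at 27.54 and 20.27 FPKM in Dhps cko and 16.25 and 17.17 FPKM in Dhps flox, and 4 Y-linked genes had log2 fold changes of -1.02 to -1.15, all of them detected in every library. The labels give no sex, and transcripts of both sexes were present in every library. A difference in the share of each sex cannot be told apart from one in genotype.

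The family lies on chromosome 11 in GENCODE M21 models of GRCm38, in the order *Slfn5* (82951349 to 82964840, plus strand), *Slfn9* (82978390 to 82991830, minus strand), *Slfn8* (83002158 to 83020810, minus strand), *Slfn2* (83065112 to 83070678, plus strand), *Slfn1* (83116849 to 83122670, plus strand), *Slfn4* (83175186 to 83190216, plus strand) and *Slfn3* (83191330 to 83215154, plus strand). Of the 7 members, the long forms thus sit next to each other, to the left of the short and intermediate forms, and *Slfn14*, which is no member and has a coding length of 2700 bases, lies beyond *Slfn3*. The coding sequences were 1014 and 1137 bases for *Slfn1* and *Slfn2*, 1923 and 1809 bases for *Slfn3* and *Slfn4*, 2655 bases for *Slfn5*, and 2733 bases for both *Slfn8* and *Slfn9*. *Slfn8* and *Slfn9* were 92.7% identical over their aligned coding bases and *Slfn3* and *Slfn4* 91.3%, while *Slfn1* and *Slfn2* were 69.4% identical. Reads from stretches that 2 genes share can be split between them. Of all windows of 100 transcript bases, 3.7% of those of *Slfn8*, 3.9% of *Slfn9*, 4.9% of *Slfn3* and at most 0.29% of the other members were also found at another locus.

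**Figure D2:**
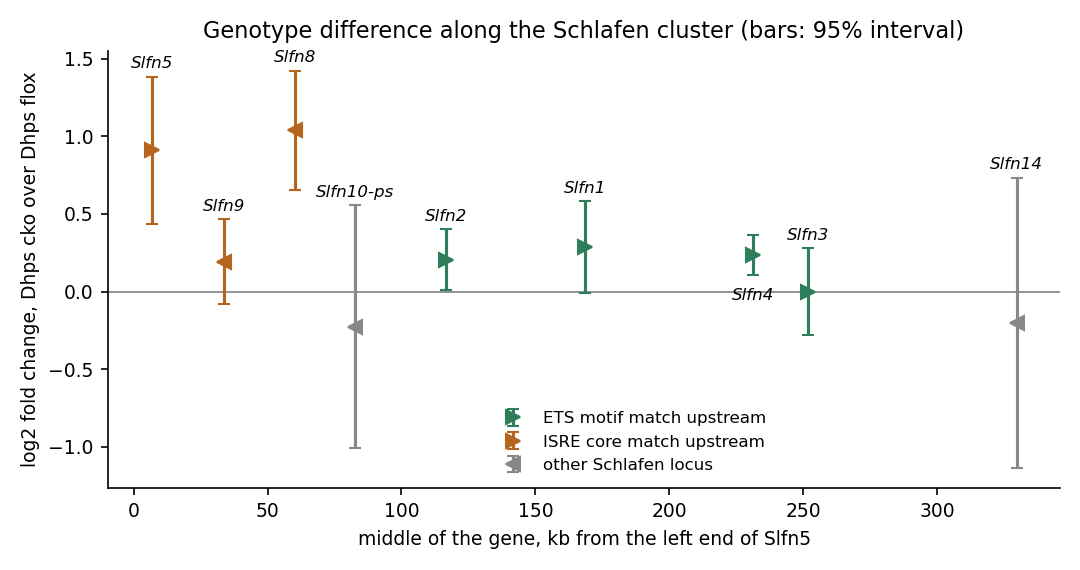
Log2 fold change of Dhps cko over Dhps flox against gene position, in kilobases from the left end of *Slfn5*, with bars for the 95% interval from limma, arrowheads for the strand, and colour for the promoter motif described below. *Slfn5* and *Slfn8* stand at 0.91 and 1.04, *Slfn9* between them at 0.19, and the 4 members at the right end lie between -0.00096 and 0.29. *Slfn10-ps* (-0.23) and *Slfn14* (-0.20), which are no members, are drawn as well.

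*Slfn8* (ENSMUSG00000035208), a long form, showed the largest fold change of the family, except without Dhps cko replicate 2, when *Slfn5* was at 1.05 and *Slfn8* at 0.91 on the log2 scale. It was at 2.80 and 3.37 FPKM in Dhps cko replicates 1 and 2, compared with 1.43 and 1.46 FPKM in Dhps flox replicates 1 and 2. Both Dhps cko libraries lay well above both Dhps flox libraries, which were almost equal. The means were 3.09 ± 0.40 FPKM (SD, n = 2) in Dhps cko and 1.45 ± 0.021 FPKM (SD, n = 2) in Dhps flox. The log2 fold change was 1.04 (standard error 0.15, 95% interval 0.65 to 1.42), with an unadjusted p of 0.00098 and an adjusted p of 0.40 in limma, and this unadjusted p ranked 43 among all genes tested. At the approximate depths given above, these levels stand for about 360 and 420 fragments in Dhps cko and 180 in each Dhps flox library. In each of 14 alternative analyses, the log2 fold change stayed between 0.74 and 1.17 and the unadjusted p under 0.05.

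*Slfn5* (ENSMUSG00000054404), a long form that is induced by interferon and acts in the nucleus, differed by a similar factor at a lower level. It was at 1.9 and 1.56 FPKM in Dhps cko replicates 1 and 2, compared with 0.90 and 0.84 FPKM in Dhps flox replicates 1 and 2. The genotypes did not overlap. The log2 fold change was 0.91 (standard error 0.18, 95% interval 0.44 to 1.39), with an unadjusted p of 0.0044 and an adjusted p of 0.49 in limma. About 360 and 290 fragments in Dhps cko and 160 and 150 in Dhps flox stood behind these values. In the 14 alternatives the log2 fold change was between 0.54, with a pseudocount of 1, and 1.05, and the unadjusted p stayed under 0.05. The antisense gene *Slfn5os* shares 559 exon bases with *Slfn5*, which are 8.84% of the exon bases of *Slfn5*, and was listed at 0 in all 4 libraries.

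*Slfn9* (ENSMUSG00000069793), the closest relative of *Slfn8*, had a smaller fold change. It was at 4.19 and 3.88 FPKM in Dhps cko replicates 1 and 2, compared with 3.41 and 3.62 FPKM in Dhps flox replicates 1 and 2. Both Dhps cko libraries were higher, by a small margin. The log2 fold change was 0.19 (standard error 0.11, 95% interval -0.080 to 0.47), with an unadjusted p of 0.13 in limma. The fragments behind it, about 600 to 770 in a library, outnumbered those of *Slfn8* and *Slfn5*. The pseudogene *Slfn10-ps* next to *Slfn8*, which shares 2.68% of the windows of *Slfn8*, was at 0.30 and 0.26 FPKM in Dhps cko and 0.31 and 0.38 FPKM in Dhps flox.

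The balance between members was compared within libraries, where depth and scaling cancel. The ratio of *Slfn8* to *Slfn9* was 0.668 and 0.869 in Dhps cko replicates 1 and 2 and 0.419 and 0.403 in Dhps flox replicates 1 and 2. The ratio of *Slfn5* to *Slfn9* was 0.453 and 0.402 in Dhps cko and 0.264 and 0.232 in Dhps flox. Both ratios were higher in both Dhps cko libraries, with an exact permutation p of 0.333 each (two-sided), the smallest that 2 libraries against 2 can give, and 0.583 after adjustment over the 7 ratios computed. The ratio of *Slfn5* to *Slfn8* was 0.679 and 0.463 in Dhps cko and 0.629 and 0.575 in Dhps flox, and the genotypes overlapped. Among the abundant members, the ratio of *Slfn4* to *Slfn2* (0.952 and 0.846 in Dhps cko, 0.856 and 0.900 in Dhps flox) and that of *Slfn1* to *Slfn2* (0.445 and 0.460 in Dhps cko, 0.451 and 0.405 in Dhps flox) overlapped between genotypes too. The last 2 of the 7 ratios, *Slfn4* to *Slfn3* (28.1 and 32.7 in Dhps cko, 25.4 and 26.1 in Dhps flox) and *Slfn8* to *Slfn10-ps* (9.33 and 12.96 in Dhps cko, 4.61 and 3.84 in Dhps flox), did not overlap, with the same exact permutation p of 0.333.

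**Figure D3:**
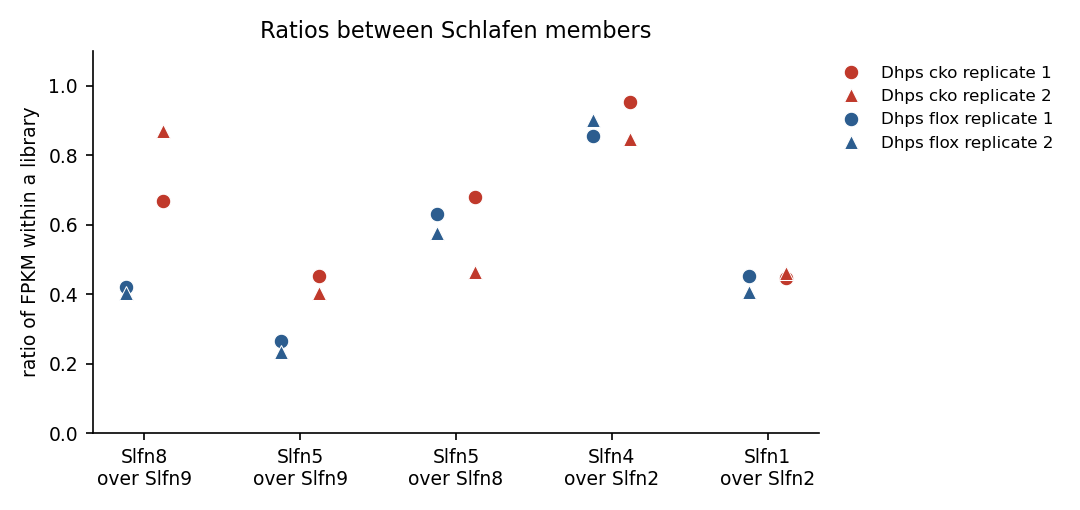
Of the 7 ratios, 5 ratios of FPKM between pairs of Schlafen members within each library, with Dhps cko in red, Dhps flox in blue, circles for replicate 1 and triangles for replicate 2. The ratios to *Slfn9* separate the genotypes, at 0.668 and 0.869 against 0.419 and 0.403 for *Slfn8*, and the other 3 ratios plotted overlap.

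*Slfn4* (ENSMUSG00000000204), the MDSC marker, was at 202.93 and 200.95 FPKM in Dhps cko replicates 1 and 2, compared with 172.91 and 169.62 FPKM in Dhps flox replicates 1 and 2. The replicates lay close together, and the Dhps cko mean was 117.9% of the Dhps flox mean. The log2 fold change was 0.24 (standard error 0.050, 95% interval 0.11 to 0.37), with an unadjusted p of 0.0053 and an adjusted p of 0.49 in limma. The unadjusted p exceeded 0.05 in 2 of the 14 alternatives, at 0.072 without the mean-variance trend and 0.052 without Dhps cko replicate 1, with log2 fold changes of 0.24 and 0.23. Among the 10629 genes that averaged 1 FPKM or more, *Pnp* (distance 0.024), *Gm10709* (0.026) and *Rpsa-ps2* (0.027) had the patterns most like *Slfn4*, by the Euclidean distance of centred log2(FPKM + 0.1) over the 4 libraries.

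*Slfn2* (ENSMUSG00000072620), which is needed for the quiescence of T cells and monocytes and protects transfer RNAs from cleavage in T cells, was the most abundant member. It was at 213.19 and 237.53 FPKM in Dhps cko replicates 1 and 2, compared with 202.02 and 188.43 FPKM in Dhps flox replicates 1 and 2. The log2 fold change was 0.21 (standard error 0.077, 95% interval 0.0078 to 0.40), with an unadjusted p of 0.044 and an adjusted p of 0.70 in limma, and the unadjusted p was under 0.05 in only 3 of the 14 alternatives. *Slfn1* (ENSMUSG00000078763), a short form that inhibits T cell growth when overexpressed, was at 94.94 and 109.37 FPKM in Dhps cko and 91.21 and 76.37 FPKM in Dhps flox. Its log2 fold change was 0.29 (standard error 0.11, 95% interval -0.0080 to 0.58), with an unadjusted p of 0.054 in limma. Over the 14 alternatives the log2 fold change ran from 0.16 to 0.42 for *Slfn1* and from 0.095 to 0.28 for *Slfn2*. For both genes, the distance between the nearest libraries of different genotype was smaller than that between the replicates of either genotype. *Slfn3* (ENSMUSG00000018986), studied mainly in T cells and the gut, was at 7.21 and 6.14 FPKM in Dhps cko and 6.81 and 6.51 FPKM in Dhps flox, with a log2 fold change of -0.00096 (standard error 0.11, 95% interval -0.28 to 0.28). The genotypes overlapped for this gene.

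Promoters were compared because interferon acts on this family through promoter sequences. Sequences were taken from the RefSeq table for GRCm38.p6, in which all 7 members were matched, and the 250 bases before each start site were searched on both strands. The core of the ISRE (GAAA, any 2 bases and GAAA again) was found in 2.97% of 32817 promoters and, in this family, in *Slfn5*, *Slfn8* and *Slfn9* and in no other member. Counted back from the start site, it lay at -48 to -39 in *Slfn8* and at -45 to -36 in *Slfn9*. The upstream sequences of these 2 genes are shown in full because their ISRE matches are alike and their log2 fold changes were 1.04 and 0.19. Capitals mark the match, on the reverse strand.
Slfn8, chr11:83020811-83021060, minus strand: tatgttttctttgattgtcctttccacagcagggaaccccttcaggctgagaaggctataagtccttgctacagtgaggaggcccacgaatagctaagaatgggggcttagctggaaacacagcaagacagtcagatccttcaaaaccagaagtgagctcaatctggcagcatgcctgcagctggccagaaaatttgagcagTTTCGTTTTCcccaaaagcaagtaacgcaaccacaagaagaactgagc
Slfn9, chr11:82991831-82992080, minus strand: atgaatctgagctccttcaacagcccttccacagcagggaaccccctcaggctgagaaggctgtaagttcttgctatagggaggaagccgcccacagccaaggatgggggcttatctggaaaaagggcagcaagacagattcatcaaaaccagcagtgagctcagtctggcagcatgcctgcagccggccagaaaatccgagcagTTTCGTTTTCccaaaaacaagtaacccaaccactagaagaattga
Of 245 aligned bases, 204 (83.3%) were identical. The table lists 2 start sites for *Slfn8*, and the one farther upstream was used.

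In *Slfn5* the match lay from -155 to -146, within a run of adenines, and 60 bases around it are shown for comparison with the pair above.
Slfn5, chr11:82951922-82951981, plus strand: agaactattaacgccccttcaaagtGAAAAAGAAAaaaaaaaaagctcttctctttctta
The other 4 members carried the letters CAGGAAGT, a motif bound by ETS-family factors such as PU.1, which were found in 2.69% of all promoters and not in *Slfn5*, *Slfn8* or *Slfn9*. This motif was chosen after the promoters had been read. The 60 bases around it are shown because *Slfn1*, *Slfn2* and *Slfn4*, the members that made up most of the family's transcripts, carry it in the same orientation. It lay at -74 to -67 in *Slfn1*, -55 to -48 in *Slfn2* and -73 to -66 in *Slfn4*. Capitals mark the matches.
Slfn1, chr11:83116720-83116779, plus strand: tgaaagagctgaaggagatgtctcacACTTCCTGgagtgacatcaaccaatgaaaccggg
Slfn2, chr11:83065031-83065090, plus strand: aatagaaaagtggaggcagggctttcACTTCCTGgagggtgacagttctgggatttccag
Slfn4, chr11:83175087-83175146, plus strand: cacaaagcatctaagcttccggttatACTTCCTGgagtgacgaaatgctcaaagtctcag
Slfn3, chr11:83191253-83191312, plus strand: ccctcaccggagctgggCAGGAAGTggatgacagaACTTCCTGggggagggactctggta
*Slfn3*, which was at a far lower level, has 2 matches, one in each orientation. A composite of ETS and interferon regulatory factor motifs (GGAA, any 2 bases and GAAA) was found in 2.30% of promoters and in *Slfn2* alone of the family, from -59 to -50, overlapping its ETS match. The letters TTCNNNGAA, the gamma-activated site, were found in 7.01% of promoters and in no member. Positions were counted from RefSeq start sites and would shift with other start sites. The RefSeq start sites of *Slfn1* and *Slfn5* differ from the GENCODE models. That of *Slfn5* lies inside the GENCODE gene, so that its ISRE match does too, and 117 of its 250 searched bases are GENCODE exon bases, with 0 among the 60 bases shown.

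The 3 members with an ISRE core had a median log2 fold change of 0.91 (0.19 to 1.04), and the 4 members with the ETS motif one of 0.22 (-0.00096 to 0.29). These values are a description, without a test. The former were at 0.84 to 4.19 FPKM and the latter at 6.14 to 237.53 FPKM, so motif, level and position in the cluster cannot be told apart. *Slfn14*, at the far end of the cluster (83275110 to 83286726, minus strand) and known from platelets and red cell precursors, was at 0.32 and 0.18 FPKM in Dhps cko and 0.27 and 0.32 FPKM in Dhps flox. *Slfnl1*, a relative outside the cluster, was at no more than 0.11 FPKM. Of the nearest protein-coding genes around the cluster, *Ap2b1* was at 16.00 to 17.24 FPKM with a log2 fold change of 0.01, and *Nle1* (0.10 to 0.45 FPKM), *Unc45b* and *Rasl10b* (at most 0.05 FPKM) were near the limit of detection. *Fndc8* was not analysed here.

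The interferon pathway that acts on Schlafen promoters was described next, from lists that were written with earlier results of these data known, so that their direction is not independent evidence. Of 21 interferon genes, 3 (*Ifng*, *Ifnk* and *Ifnz*) had values, with a summed level of at most 0.03 FPKM in a library, and the others were not analysed here. All 6 receptor genes were expressed, at a median log2 fold change of 0.08, and 3 of them were higher in both Dhps cko libraries, compared with 20.0% of all genes. An unadjusted p under 0.05 was found for 0 of 6, compared with 4.72% (higher) and 2.28% (lower) of all genes, so that a count of 0 in so short a list is near the background. *Ifnlr1*, a receptor chain of type III interferon, was at 34.76 and 32.97 FPKM in Dhps cko and 30.65 and 31.81 FPKM in Dhps flox.

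*Irf9* and *Stat2*, whose products act together at the ISRE, were higher in both Dhps cko libraries. *Irf9*, the DNA-binding part, was at 13.89 and 14.33 FPKM in Dhps cko and 9.43 and 9.96 FPKM in Dhps flox, with a log2 fold change of 0.54 (standard error 0.072, unadjusted p = 0.00069, adjusted p = 0.38 in limma). *Stat2* was at 7.83 and 7.91 FPKM in Dhps cko and 6.29 and 6.67 FPKM in Dhps flox (log2 fold change 0.28, unadjusted p = 0.019 in limma). The kinase genes *Jak1*, *Jak2* and *Tyk2* had log2 fold changes of -0.03, -0.05 and -0.06, and *Jak1* was at 49.51 and 50.86 FPKM in Dhps cko and 52.03 and 50.71 FPKM in Dhps flox. Of 8 interferon regulatory factors, 2 were higher at an unadjusted p under 0.05, compared with 4.72% of all genes. *Irf7*, which amplifies the response, was at 12.65 and 11.79 FPKM in Dhps cko and 7.40 and 7.81 FPKM in Dhps flox (log2 fold change 0.68), and *Irf3* had a log2 fold change of 0.21.

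Of 35 interferon-induced effector genes tested, 21 had an unadjusted p under 0.05 and were higher in Dhps cko, compared with 4.72% of all genes, 0 were lower at that threshold, and 0 had an adjusted p under 0.05. Without regard to p, 30 were higher and 1, *Ifit2* (log2 fold change -0.10), was lower in both Dhps cko libraries, compared with 20.0% and 16.0% of all genes. Their median log2 fold change was 0.42, above the 0.24 of the Schlafen members. *Oasl2*, of the oligoadenylate synthetase family, was at 3.60 and 3.31 FPKM in Dhps cko and 1.55 and 1.47 FPKM in Dhps flox (log2 fold change 1.14), a difference close to that of *Slfn8*. *Rtp4*, at 8.03 and 8.22 FPKM against 4.29 and 3.49 FPKM (log2 fold change 1.05), and *Oas2*, at 24.36 and 22.94 FPKM against 15.86 and 16.29 FPKM (log2 fold change 0.55), showed the same order. *Ifitm3*, the most abundant effector, was at 186.79 and 190.59 FPKM in Dhps cko and 145.15 and 151.52 FPKM in Dhps flox (log2 fold change 0.35). *Samd9l* was at 58.11 and 61.60 FPKM against 62.42 and 52.41 FPKM and overlapped. Of 7 feedback inhibitors, *Usp18* (log2 fold change 0.90) and *Socs3* (0.31) were higher and *Trim24* (-0.29) lower at an unadjusted p under 0.05, compared with 4.72% and 2.28% of all genes, and the most abundant, *Ptpn6*, had a log2 fold change of 0.11.

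**Figure D4:**
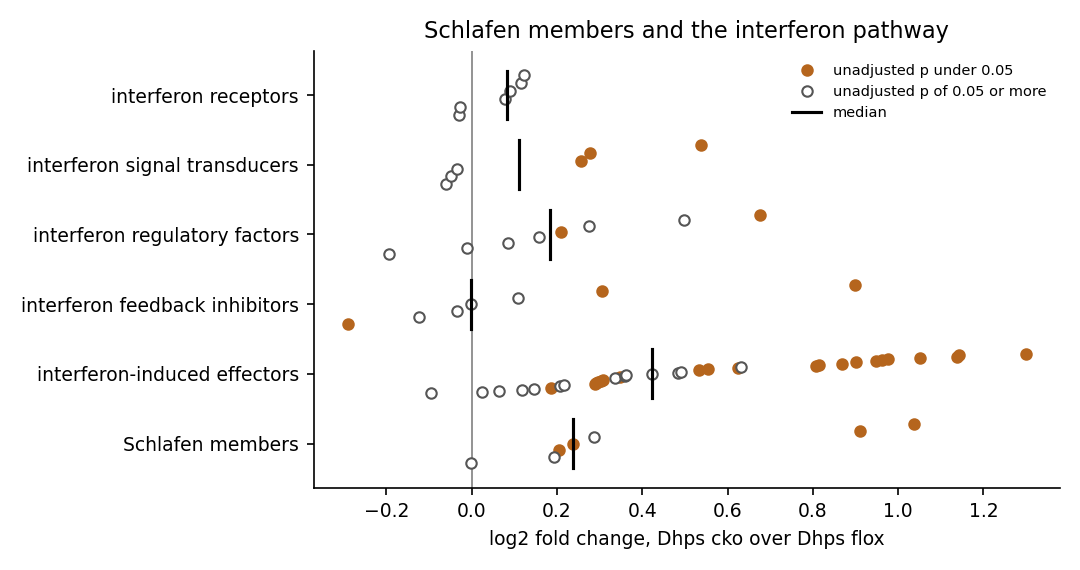
Log2 fold change of Dhps cko over Dhps flox for each tested gene of 5 interferon pathway lists and the 7 Schlafen members, with filled points for an unadjusted p under 0.05 in limma, open points for the others, and black lines for list medians. The effector median is 0.42, the member median 0.24 and the receptor median 0.08.

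Pathways tied to single members were described from further lists, also chosen with earlier results of these data known. Of 7 genes for transfer RNA cleavage and its control, the process *Slfn2* acts on, 0 had an unadjusted p under 0.05, against the same shares of all genes. Their median log2 fold change was -0.10, all 7 were below 0, compared with 52.2% of all genes above 0, and 3 (*Elac2*, *Rnase4* and *Trdmt1*) were lower in both Dhps cko libraries, compared with 16.0% of all genes. *Rnh1*, the inhibitor of angiogenin-like nucleases, was at 17.87 and 19.91 FPKM in Dhps cko and 18.27 and 20.39 FPKM in Dhps flox, while *Ang* itself was at 0.24 to 0.44 FPKM. Of 6 Hedgehog pathway genes tested, which act upstream of *Slfn4* in the stomach, 0 had an unadjusted p under 0.05, a count near those shares, and *Gli1* was at no more than 0.18 FPKM.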

How the data were processed

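Total RNA of splenic PMN-MDSCs from postnatal day 7 pups was sequenced on an Illumina instrument. The authors filtered reads with Cutadapt 1.9, aligned them with HISAT2 2.2.1 (mm10, per the labels) and deposited FPKM per gene, calculated with StringTie 2.1.6 and ballgown and rounded to 2 decimals. The annotation and the use of strand are not given in the sources used here. FPKM fall for all genes when a few abundant ones take more fragments. Libraries were grouped by the genotype in the labels.

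From these values, log2(FPKM + 0.1) was compared between genotypes for genes averaging 0.1 FPKM or more, with limma 3.58.1 in R 4.3.3 (lmFit, eBayes with a mean-variance trend, two-sided, Benjamini-Hochberg threshold 0.05) and no replicate block. Ratios were compared with exact permutation tests. Coordinates came from GENCODE M21 and promoters from RefSeq. Python 3.11.15 and Biopython 1.88 were used. The limma fit and the depth estimate were tested on simulated data. Depths and fragment numbers are approximate, and no count-based test was used.

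The members and lists were chosen with earlier results of these data known. Named genes were all Schlafen loci, *Dhps*, the 3 nearest protein-coding genes on each side, sex-linked genes, the 3 genes most like *Slfn4*, and from each list the 2 most abundant genes and up to 3 with the smallest unadjusted p under 0.05 and a mean of at least 1 FPKM. The 14 alternatives changed the pseudocount, filter, scaling, variance model or block, or left out 1 library. List genes beyond this rule (*Jak2*, *Tyk2*, *Mertk*, *Ang*, *Elac2*, *Rnase4*, *Trdmt1*, *Gli1*, *Ifit2*, *Ifng*, *Ifnk*, *Ifnz*) were named after their values were seen. Some genes that this rule names are not reported here.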

Additional observations from a re-analysis of the deposited data

How the results depend on the processing

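In all, 14 alternatives were run for each Schlafen member, and *Slfn1*, *Slfn2*, *Slfn4*, *Slfn5*, *Slfn8* and *Slfn9* kept their direction in 14 of 14, with 0 members at an adjusted p under 0.05 in any. The log2 fold change of *Slfn3*, near 0 in the main analysis, turned to 0.11 without Dhps cko replicate 2 and to 0.03 without Dhps flox replicate 1, and ran from -0.12 to 0.11 when any library was left out. The number of members with an unadjusted p under 0.05, 4 in the main analysis, was 2 (*Slfn8* and *Slfn5*) with no mean-variance trend. It was 5 with a mean of at least 1 FPKM, where *Slfn1* joined, and 3 or 4 in the other alternatives that kept every library. Over all genes, 1 gene had an adjusted p under 0.05, and this number was 0 with a pseudocount of 0.01, 0 with no filter on low values, 4 with a mean of at least 1 FPKM, 2 with TPM scaling, 2 with quantile normalization, 0 with each gene fitted alone, and 0 to 0 when a library was left out. The cause was not tested. The number of effector genes with an unadjusted p under 0.05 ran from 14 to 21. Replicate numbers are shared between genotypes but nothing in the labels pairs them, and the deviations of same-numbered libraries from their group means had a correlation of -0.06 across 10629 genes. With a replicate block, 0 genes had an adjusted p under 0.05, 1082 in place of 1257 had an unadjusted p under 0.05, and 3 members did.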
